A study of Homo sapiens with 5 samples.

Results

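The genes described here make cholesterol and fatty acids, or regulate and move these lipids. The 37 members were listed by gene symbol, and a member was taken where its symbol had a row in the expression table of RH4 cells. Rows were found for 35 of the 37. RNA levels of CYP51A1 and ABCA1 were not analysed here.

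Cells build cholesterol from acetyl-CoA through mevalonate, isoprenoid units, squalene and lanosterol, and they build fatty acids from the same acetyl-CoA by repeated condensation, followed by elongation and desaturation. Transcription factors of the SREBP family, held in the endoplasmic reticulum by SCAP and INSIG proteins when sterols are plentiful, switch many of these genes on when sterols run short. Proliferating tumour cells draw on both pathways for new membranes.

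RH4 is a cell line of alveolar rhabdomyosarcoma, a childhood tumour with features of skeletal muscle. Poly-A+ RNA was sequenced from 3 cultures given the control siRNA si-SCR and from 2 given si-circVAMP3, an siRNA against the back-splice junction of circVAMP3, a circular RNA made from the VAMP3 gene. Both siRNAs were used at 30 nM, the medium was changed after 24 h, and cells were collected 24 h later. The study's methods call the libraries biological replicates, and no other group was sequenced.

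Whole reads worked back from the FPKM (fragments scaled to exon length and library size) gave 26.6, 25.2 and 25.1 M reads on the listed genes for si-SCR replicates 1, 2 and 3. The same sum was 18.8 and 29.0 M for si-circVAMP3 replicates 1 and 2. These reads are a reconstruction: some genes may carry a whole fraction of their true reads, and in 4 libraries the sum came to 100.7 to 101.2% of the library size behind the FPKM, which may have been scaled by normalization factors. Among the members the lowest number of reads behind any value was 163, for ACSS2, and the highest was 36295, for SCD, so counting error was largest for ACSS2, TM7SF2, PMVK and HSD17B7, the members with the fewest reads.

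The label of the cells was checked against marker genes. All 12 markers of the skeletal muscle lineage and of this tumour type had a row, and their summed FPKM was 1157, 1143 and 1004 in the si-SCR libraries and 942 and 950 in the si-circVAMP3 libraries. DES, a muscle intermediate filament, was the most abundant of them, at a mean of 269 FPKM. Of the 12, limma called 3 lower, where 15.8% of all tested genes were called lower. MYOD1 alone had a positive log2 fold change (0.20), and it was not called. The other uncalled markers had negative values, from -0.35 for CDH15 to -0.06 for TFAP2B. MYOG, CHRND and CHRNG were the 3 called lower after si-circVAMP3, by -0.76, -0.31 and -0.61 on the log2 scale, where each difference is taken between group means of log2(FPKM + 0.1) and a gene is called at an adjusted p under 0.05. Of the 5 fibroblast markers 3 had a row, and these summed to between 1.57 and 1.87 FPKM and were led by PDGFRA at 0.816 FPKM, and of the 3 endothelial markers only PECAM1 had a row, at a mean of 0.109 FPKM. No epithelial, blood or liver marker on the lists had a row.

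RNA composition differed between the groups. Ribosomal protein genes took 9.37, 9.27 and 9.72% of the summed FPKM in the si-SCR libraries and 10.98 and 11.3% in the si-circVAMP3 libraries. Genes of the mitochondrial genome took 20.9, 21.7 and 20.9%, against 19.6 and 18.6%. The part of these differences and of the muscle markers in the results on lipid genes was not tested, and in bulk RNA fewer cells of a type and less RNA per cell cannot be told apart.

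One control library stood apart. In the 2477 tested genes whose transcripts had the highest GC content (57.6 to 74.2%), the median log2 value of si-SCR replicate 3 lay -0.21 from the mean of the other 2 controls, and in the 2478 with the lowest GC content it lay 0.05 above it. Of the members, 10 were in that GC-rich class, with a median difference of -0.13, against 0.06 for the other 25. FASN, MVD and SREBF1 were among the 10, and results that turn on this library are given below with and without it.

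The linear VAMP3 transcript was read first, as a weak check of the labels. Circular RNA carries no poly-A tail, so the VAMP3 row stands for the linear transcript and not for circVAMP3. The siRNA is shown because it defines the comparison, with the bases that match the end of exon 4 in capitals, and the 11 bases after them match the start of exon 3.
si-circVAMP3: CAUCAUCGgugguggacauuu
In GENCODE v44 the exons lie on the plus strand at chr1:7777160-7777318 and chr1:7778118-7778169 (GRCh38), and together they hold 211 bases. VAMP3 stood at 36.4, 35.4 and 37.4 FPKM in the si-SCR libraries and at 29.4 and 30.2 FPKM in the si-circVAMP3 libraries. Both si-circVAMP3 libraries lay below every control, which held for 29.0% of all tested genes. VAMP3 had a log2 fold change of -0.29 (SE 0.04, adjusted p = 0.0051), where 15.8% of all tested genes were called lower. Its adjusted p ran from 0.0029 to 0.051 over the alternative settings, and the highest value came without si-circVAMP3 replicate 1.

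The comparison asked which lipid genes differ in RNA level after circVAMP3 knock-down. MSMO1 and DHCR7, which are 2 of the 7 measured enzymes between lanosterol and cholesterol, and the lysosomal sterol carrier NPC2 were higher, whereas the desaturases FADS1 and SCD, squalene epoxidase, mevalonate kinase and the transcription factor gene SREBF2 were lower. All 35 members passed the filter on low values, and limma called 8 of them at an adjusted p under 0.05, which is 22.9% of the members where 30.1% of all 12423 tested genes were called. The 3 higher members were MSMO1, DHCR7 and NPC2 (8.57%, against 14.3% of all genes called higher). The 5 lower members were FADS1, SREBF2, SQLE, MVK and SCD (14.3%, against 15.8% of all genes called lower). The share of called members was thus not above that of the table. Without si-circVAMP3 replicate 1 the calls among the members were 2 higher and 3 lower, without si-circVAMP3 replicate 2 they were 3 and 1, and calls over all genes then numbered 1304 and 1274 (2180 without si-SCR replicate 2).

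Changes of the members were small. Their log2 fold changes ran from -0.46 for FADS1 to 0.49 for NPC2, with a median of -0.02, against 0.01 for all tested genes. The median size of the change, without its sign, was 0.11 for the members and 0.17 for all tested genes. No member passed both an adjusted p under 0.05 and an absolute log2 fold change of at least 0.58, the cutoff used in the study, in limma, where 5.77% of all genes did. By unadjusted p under 0.05 limma gave 12 members (34.3%, against 42.6% of all tested genes), and voom on the recovered reads called 9 (25.7%, against 33.5%), none of them past 0.58 either. Both si-circVAMP3 libraries lay above all controls in 9 members (25.7%, against 29.4% of all genes) and below all controls in 10 (28.6%, against 29.0%).

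**Figure D1:**
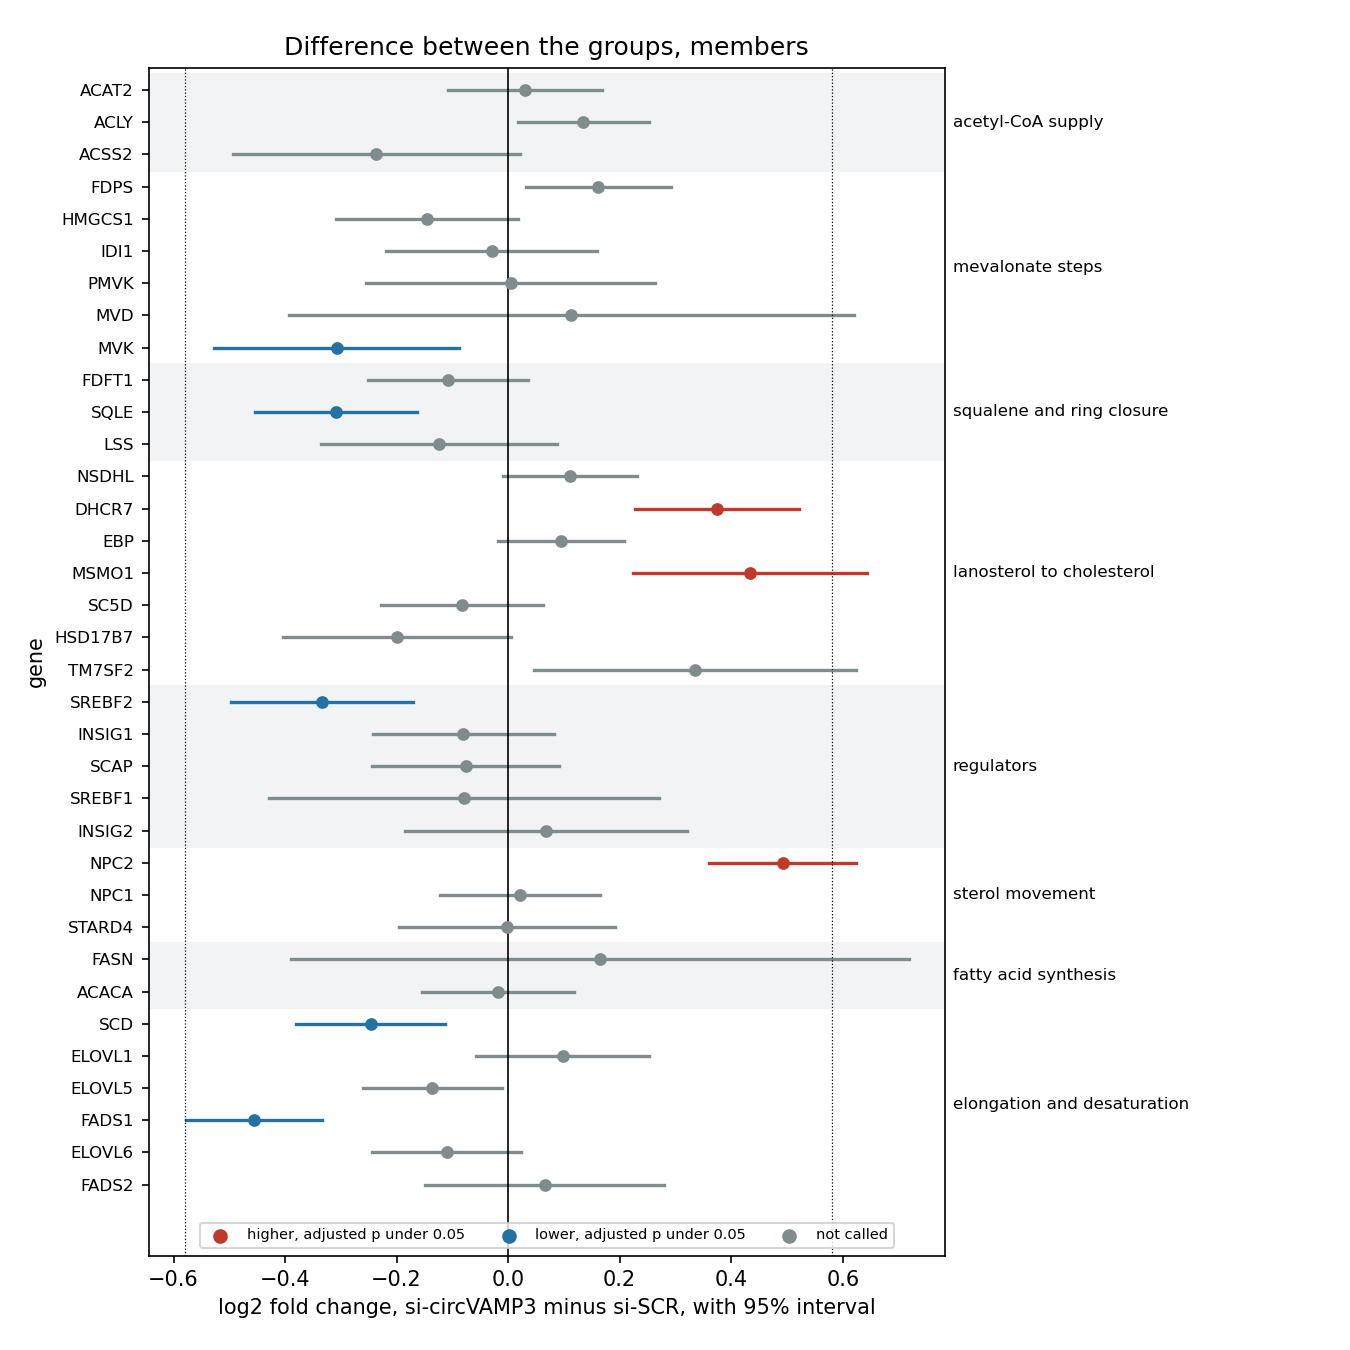
Log2 fold change of each member, si-circVAMP3 minus si-SCR, on the horizontal axis with its 95% interval, members grouped by role on the vertical axis. Red points are the 3 members called higher and blue points the 5 called lower at an adjusted p under 0.05, grey points were not called, and dotted lines mark 0.58 in either direction.

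Acetyl-CoA supply came first in the pathway, and none of its 3 members was called. ACAT2, which joins acetyl-CoA units to acetoacetyl-CoA, stood at 116, 111 and 125 FPKM in the si-SCR libraries and at 122 and 117 FPKM in the si-circVAMP3 libraries. The groups overlapped, and the log2 fold change was 0.03 (95% interval -0.11 to 0.17). ACLY, which cleaves citrate into acetyl-CoA, stood at 85.3, 84.1 and 85.2 FPKM in the controls and at 97.7 and 88.9 FPKM after si-circVAMP3. Both treated libraries were above the controls, which lay close together, yet the difference of 0.13 missed the threshold (95% interval 0.02 to 0.25, adjusted p = 0.081). For ACLY the difference was 0.07 without si-circVAMP3 replicate 1 and 0.20 without si-circVAMP3 replicate 2. ACSS2, which makes acetyl-CoA from acetate, was low throughout, between 1.56 and 2.15 FPKM, with a log2 fold change of -0.24 (95% interval -0.49 to 0.02).

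Of the 6 mevalonate enzymes only MVK was called. MVK (mevalonate kinase, ENSG00000110921, chr12:109573255-109598125) was at 3.77, 3.27 and 3.40 FPKM in the si-SCR libraries and at 2.94 and 2.64 FPKM in the si-circVAMP3 libraries. The groups did not overlap, and the log2 fold change was -0.31 (SE 0.09, adjusted p = 0.046). This call was the least firm of the 8: it was lost in 7 of 14 alternative settings, among them the removal of any 1 of the 5 libraries (adjusted p from 0.052 to 0.24), and over all 14 the adjusted p ran from 0.021 to 0.24.

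FDPS, which makes farnesyl pyrophosphate, was among the 5 highest members, at 49.1, 49.6 and 52.6 FPKM in the controls and at 58.9 and 54.0 FPKM after si-circVAMP3. Both treated libraries were above all controls, with a log2 fold change of 0.16 (95% interval 0.03 to 0.29, adjusted p = 0.066). It was called without si-SCR replicate 3 (adjusted p = 0.031) and by voom on the recovered reads (adjusted p = 0.048), over a range from 0.031 to 0.35. HMGCS1, IDI1 and PMVK overlapped between the groups, with log2 fold changes of -0.15, -0.03 and 0.00. MVD, which decarboxylates mevalonate pyrophosphate, was spread widely among the controls, at 8.18, 5.69 and 4.64 FPKM, and both treated libraries, at 6.28 and 6.73 FPKM, lay inside that spread. Its log2 fold change was 0.11 with all libraries, -0.07 without si-SCR replicate 3 and 0.33 without si-SCR replicate 1.

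**Figure D2:**
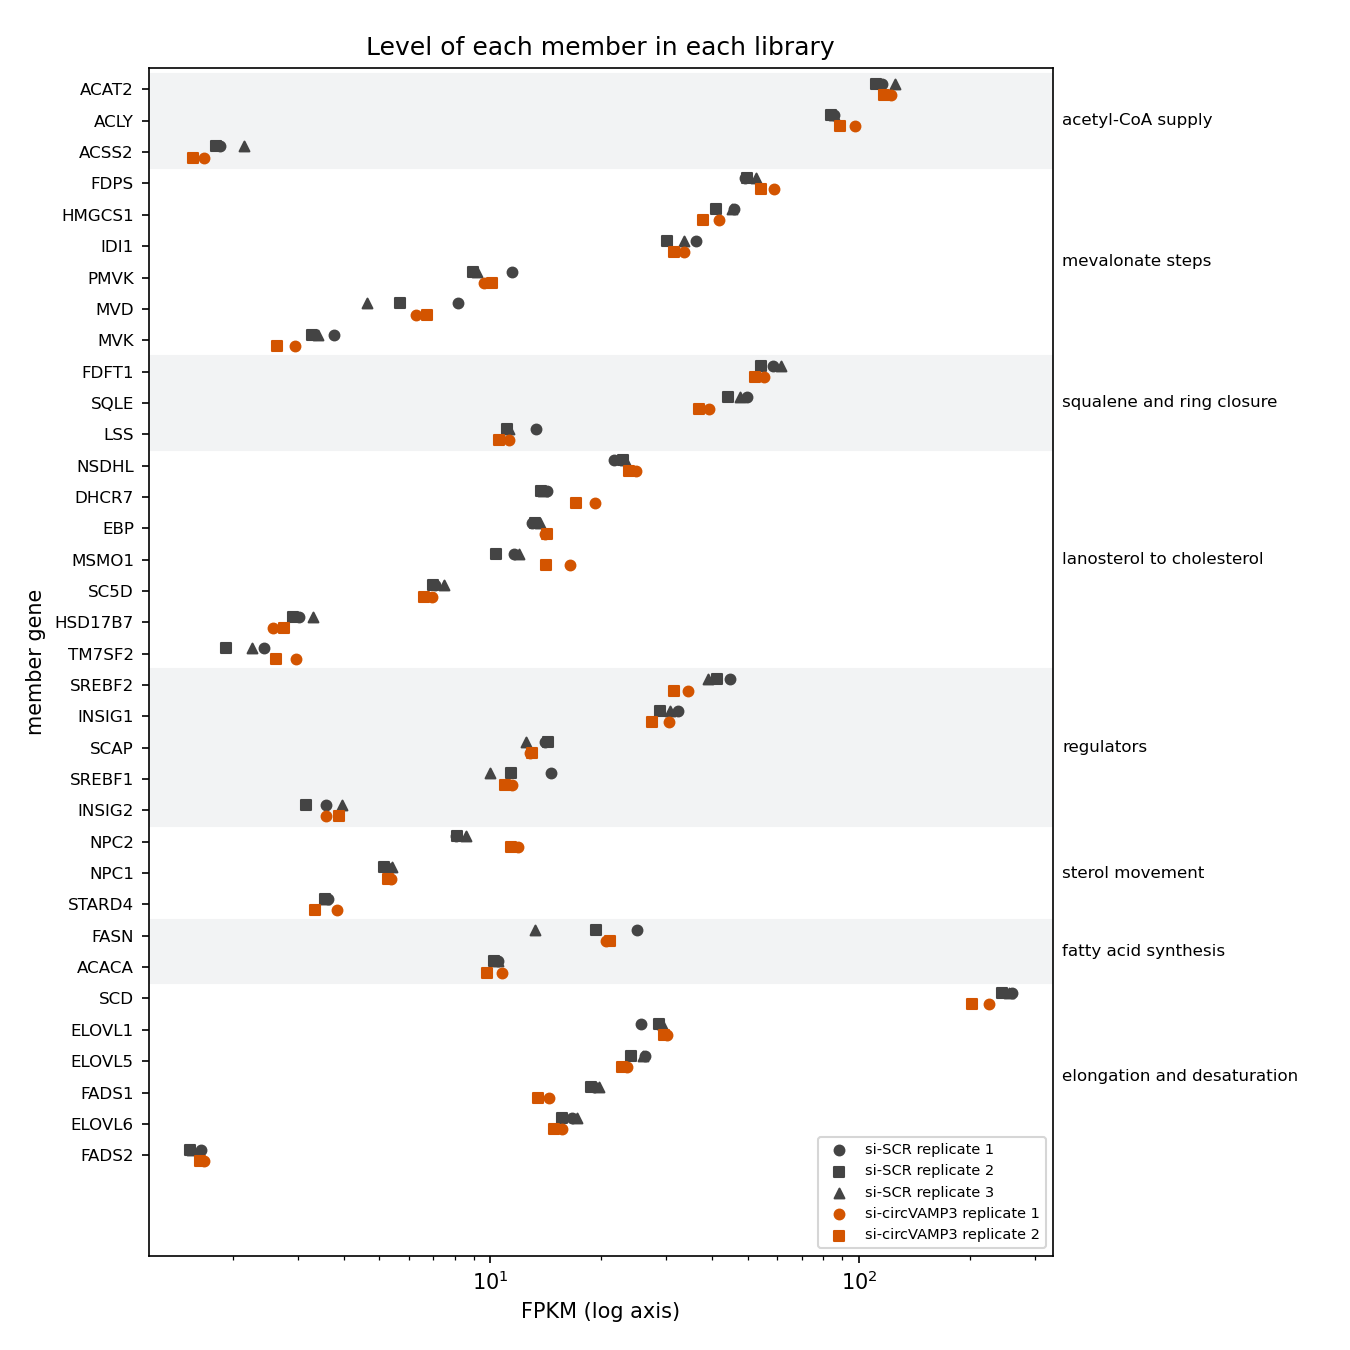
FPKM of each of the 35 members in each library on a log axis, members grouped by role, grey for the 3 si-SCR and orange for the 2 si-circVAMP3 libraries, with symbol shapes for the replicates. SCD stood highest, at 202 to 259 FPKM, and FADS2 lowest by its mean, and the controls of FASN, MVD and SREBF1 are spread further apart than those of most members.

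SQLE, squalene epoxidase, was the called member among the 3 genes for squalene and ring closure. It stood at 49.5, 44 and 47.6 FPKM in the si-SCR libraries and at 39.1 and 36.7 FPKM in the si-circVAMP3 libraries. Every treated library lay below every control (log2 fold change -0.31, SE 0.06, adjusted p = 0.012). With only 1 si-circVAMP3 library in the fit the call was lost, at an adjusted p of 0.052 without replicate 1 and 0.093 without replicate 2, and over all alternatives the range was 0.0040 to 0.093. FDFT1, which joins farnesyl units into squalene, was at 58.2, 54.3 and 61.2 FPKM in the controls and at 55.2 and 52.1 FPKM after si-circVAMP3, with overlapping groups and a log2 fold change of -0.11 (95% interval -0.25 to 0.04). LSS, which closes the lanosterol ring, had overlapping groups too, with a log2 fold change of -0.12.

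Between lanosterol and cholesterol the called members were higher. MSMO1 (a sterol C4 demethylase, ENSG00000052802, chr4:165327667-165343164) was at 11.6, 10.4 and 11.9 FPKM in the si-SCR libraries and at 16.4 and 14.2 FPKM in the si-circVAMP3 libraries. Its groups were separate, and the log2 fold change was 0.43 (SE 0.09, adjusted p = 0.013). The adjusted p ran from 0.0035 to 0.094 over the alternatives, the highest without si-circVAMP3 replicate 1, where the log2 fold change was 0.33. DHCR7 (the reductase of the last step, ENSG00000172893, chr11:71428193-71452868) was at 14.2, 13.7 and 13.9 FPKM in the controls and at 19.2 and 17.1 FPKM after si-circVAMP3. The controls lay close together and below both treated libraries (log2 fold change 0.37, SE 0.06, adjusted p = 0.0067), and the gene was called in each of 15 alternative fits, with adjusted p from 0.0025 to 0.04995.

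The other 5 measured enzymes of this stretch were not called. In 3 of them both treated libraries lay above the controls and in 2 below them, where 29.4% of all tested genes lay above and 29.0% below. TM7SF2, a sterol reductase, was at 2.44, 1.91 and 2.25 FPKM in the controls and at 2.97 and 2.62 FPKM after si-circVAMP3, which gave a log2 fold change of 0.34 with a wide interval (0.05 to 0.62, adjusted p = 0.078). NSDHL was called higher only after GC correction (log2 fold change 0.14, adjusted p = 0.037, over a range from 0.037 to 0.49). NSDHL and EBP lay above the controls by 0.11 and 0.09, whereas HSD17B7 and SC5D lay below them by log2 values of -0.20 and -0.08. The summed FPKM of the 7 measured members of this stretch was 72.9, 71.9 and 75.5 in the controls and 87.1 and 81.2 after si-circVAMP3, a description without a test. HSD17B7, IDI1, FDPS and SCD have named pseudogenes (2, 3, 8 and 1 in GENCODE v44), and 36.4% of the exon bases of EBP lie in a further gene model on the same strand, so reads of these members could have been shared or dropped in counting.

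Among the 5 regulators SREBF2 was lower and the others were not called. SREBF2 (ENSG00000198911, chr22:41833105-41907306) encodes SREBP-2, the family member known chiefly for sterol genes. It stood at 44.5, 41.3 and 38.9 FPKM in the si-SCR libraries and at 34.4 and 31.5 FPKM in the si-circVAMP3 libraries. All treated values were below all control values, with a log2 fold change of -0.33 (SE 0.07, adjusted p = 0.014). Over the alternatives the adjusted p ran from 0.0029 to 0.10, and the highest value, past the threshold, came without si-circVAMP3 replicate 2, where the log2 fold change was -0.27.

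SREBF1, the paralogous gene for SREBP-1, which is known chiefly for fatty acid genes, was at 14.6, 11.4 and 9.96 FPKM in the controls and at 11.4 and 10.9 FPKM after si-circVAMP3. The treated libraries lay within the controls (log2 fold change -0.08, 95% interval -0.43 to 0.27), and the difference was 0.07 without si-SCR replicate 1 and -0.20 without si-SCR replicate 3. The FPKM of SREBF2 was 3.05, 3.62 and 3.91 times that of SREBF1 in the controls and 3.002 and 2.88 times after si-circVAMP3. Whether the 2 genes differ in their response was not tested.

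INSIG1, which retains SCAP in the endoplasmic reticulum, stood at 32.2, 28.9 and 30.8 FPKM in the si-SCR libraries and at 30.6 and 27.4 FPKM in the si-circVAMP3 libraries. Its groups overlapped, with a log2 fold change of -0.08 (95% interval -0.24 to 0.08). For INSIG1 the difference was -0.16 without si-circVAMP3 replicate 1 and -0.0014 without si-circVAMP3 replicate 2. INSIG2, its paralog, was at 3.59, 3.16 and 3.96 FPKM in the controls and at 3.58 and 3.89 FPKM after si-circVAMP3, with a log2 fold change of 0.07 (95% interval -0.18 to 0.32). In every library INSIG1 was the more abundant, by 7.04 to 9.13 times. SCAP, the sterol sensor that escorts SREBP to the Golgi, was at 14.05, 14.3 and 12.5 FPKM in the controls. After si-circVAMP3 it was at 12.8 and 12.97 FPKM, with overlapping groups and a log2 fold change of -0.08 (95% interval -0.24 to 0.09). The difference was -0.14 without si-SCR replicate 3 (adjusted p = 0.065) and -0.14 after GC correction (adjusted p = 0.054).

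NPC2 had the largest change of any member with all libraries, whereas FADS1 (-0.50) passed it without si-circVAMP3 replicate 1, and MSMO1 (0.54) without replicate 2. NPC2 (ENSG00000119655, chr14:74476192-74494177), a soluble protein that hands cholesterol to NPC1 inside lysosomes, was at 8.05, 8.12 and 8.56 FPKM in the si-SCR libraries and at 11.9 and 11.4 FPKM in the si-circVAMP3 libraries. Both treated libraries were clear of the controls, with a log2 fold change of 0.49 (SE 0.06, 95% interval 0.36 to 0.62, adjusted p = 0.0019). It was called in each of 15 alternative fits, with adjusted p from 0.00036 to 0.028. NPC1, the membrane protein that takes over the sterol, was between 5.14 and 5.42 FPKM in all 5 libraries, with a log2 fold change of 0.02 (95% interval -0.12 to 0.16). STARD4, a cytosolic sterol carrier, was between 3.34 and 3.83 FPKM, with a log2 fold change of -0.00 (95% interval -0.20 to 0.19).

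Neither gene of fatty acid synthesis proper was called. FASN, the fatty acid synthase, had the widest spread of all members among the controls, at 24.9, 19.4 and 13.2 FPKM, and its control SD on the log2 scale was larger than that of 98.5% of tested genes. Both si-circVAMP3 libraries, at 20.6 and 21.1 FPKM, fell inside it. The log2 fold change was 0.16 (95% interval -0.39 to 0.72) with all libraries, -0.08 without si-SCR replicate 3 and 0.38 without si-SCR replicate 1. These libraries therefore set no close bound on FASN. ACACA, the acetyl-CoA carboxylase, was steady at 9.81 to 10.7 FPKM, with a log2 fold change of -0.02 (95% interval -0.15 to 0.12).

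FADS1 fell most of the members. FADS1 (the delta-5 desaturase of polyunsaturated fatty acids, ENSG00000149485, chr11:61799627-61829318) was at 19.04, 18.7 and 19.7 FPKM in the si-SCR libraries and at 14.4 and 13.5 FPKM in the si-circVAMP3 libraries. The groups stood well apart, with a log2 fold change of -0.46 (SE 0.05, 95% interval -0.58 to -0.33, adjusted p = 0.0019), and the gene was called in each of 15 alternative fits, with adjusted p from 0.00022 to 0.024. FADS2, the delta-6 desaturase, overlaps FADS1 on the opposite strand and was the least abundant member by its mean, at 1.64, 1.53 and 1.55 FPKM in the controls and 1.67 and 1.63 FPKM after si-circVAMP3. It was not called (log2 fold change 0.07, 95% interval -0.15 to 0.28). FPKM of FADS1 exceeded that of FADS2 11.6, 12.2 and 12.7 times in the controls and 8.60 and 8.29 times after si-circVAMP3, and this difference between the genes was not tested.

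SCD (stearoyl-CoA desaturase, which makes monounsaturated fatty acids, ENSG00000099194, chr10:100347233-100364826) was the most abundant member in every library. It was at 259, 244 and 254 FPKM in the si-SCR libraries and at 224 and 202 FPKM in the si-circVAMP3 libraries. The treated libraries were both below the controls (log2 fold change -0.25, SE 0.06, adjusted p = 0.019). The call was lost with a constant prior variance (adjusted p = 0.052) and without si-circVAMP3 replicate 2 (adjusted p = 0.13, log2 fold change -0.17), over a range from 0.0067 to 0.13. Of the elongases, ELOVL5 and ELOVL6 lay below the controls and ELOVL1 above them without being called, with log2 fold changes of -0.14, -0.11 and 0.10.

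**Figure D3:**
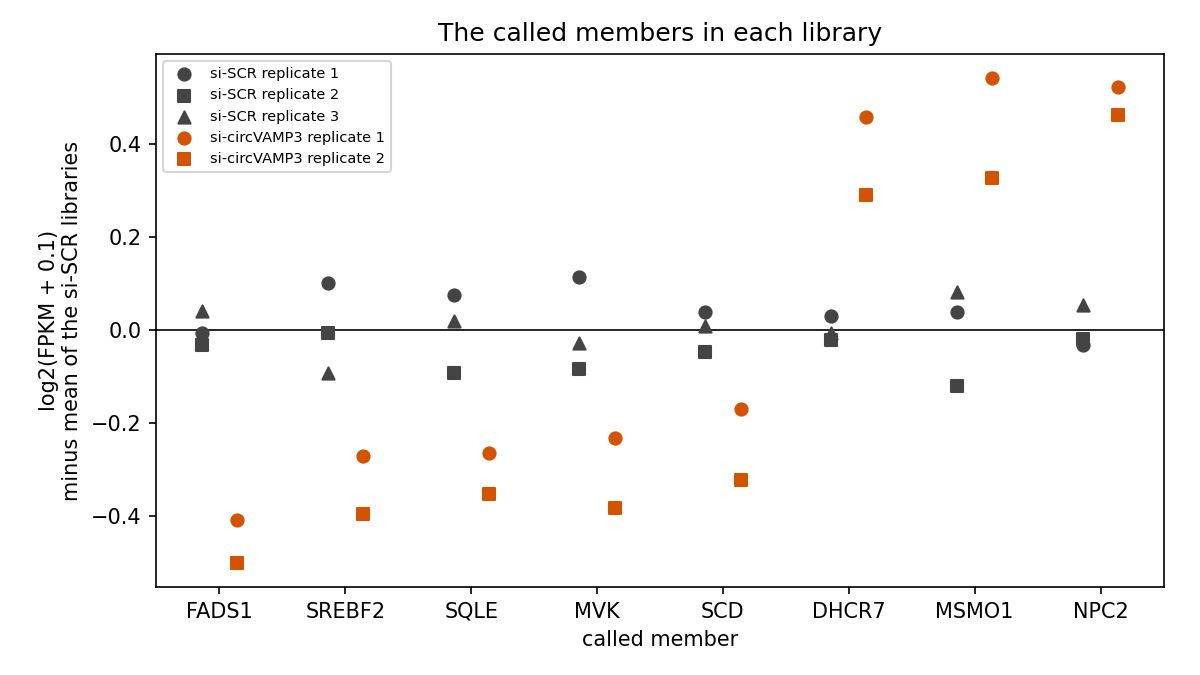
The 8 called members in each library, as log2(FPKM + 0.1) minus the mean of the 3 si-SCR libraries, grey for si-SCR and orange for si-circVAMP3. In each of the 8 genes both si-circVAMP3 points lie on one side of all 3 control points, and replicate 2 lies further from the controls than replicate 1 in the 5 lower genes and nearer in the 3 higher ones.

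The si-circVAMP3 libraries also differed from each other over the members. Replicate 2 was below replicate 1 in all 8 called members and in 20 of the 27 others (74.1%), against 49.8% of all tested genes, a description without a test. Over all 35 members the summed FPKM was 1060, 995 and 1041 in the si-SCR libraries and 1022 and 952 in the si-circVAMP3 libraries. Of the 27 members that were not called, 24 had a 95% interval inside -0.58 and 0.58, and the others were TM7SF2, MVD and FASN.

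The start regions of the members were searched for motifs that SREBP and its partners are known to bind. RefSeq windows (GRCh38.p14) from 250 bases before to 50 after the gene start were at hand for 33 of the 37 members, 7 of them called, and for 9438 tested genes. On either strand the sterol regulatory element TCACCCCAC stood in 1 member, SREBF2, and in 0.360% of the tested genes' windows and 0.430% of all 35116 windows. Its looser form TCACNCCAC, which includes the first motif, added no member and stood in 1.08% of the tested genes' windows and 1.13% of all windows. The window of SREBF2 is shown because this gene fell and alone held the element, which is in capitals on the plus strand and begins 133 bases before the start (chr22:41832855-41833154).
SREBF2: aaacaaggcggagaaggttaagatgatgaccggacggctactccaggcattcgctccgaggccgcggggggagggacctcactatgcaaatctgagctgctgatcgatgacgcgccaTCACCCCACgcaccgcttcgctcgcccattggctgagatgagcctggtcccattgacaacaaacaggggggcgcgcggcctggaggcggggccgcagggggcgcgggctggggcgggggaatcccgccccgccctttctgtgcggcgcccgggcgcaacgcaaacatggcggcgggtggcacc
The NF-Y box CCAAT stood in 21 of the 33 windows (63.6%), against 37.8% for tested genes and 34.6% for all windows. The SP1 box GGGCGG stood in 30 (90.9%), against 71.3% and 45.0%, and the E-box CACGTG in 6 (18.2%), against 10.2% and 7.26%. Of the 7 windows of called members, 6 held CCAAT, 7 held GGGCGG and 0 held CACGTG. Whether called and other members differ in these motifs was not tested. Of the 33 windows 2 belong to CYP51A1 and ABCA1, whose RNA was not measured, and over the other 31 the counts were 21 (67.7%) for CCAAT, 28 (90.3%) for GGGCGG and 5 (16.1%) for CACGTG. The members' windows had a median GC content of 67.7%, beside 65.7% for tested genes. These are letter matches in short windows and not binding sites.

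Genes around the pathway were taken from a separate list of 61, of which 56 had a row and 55 passed the filter. Limma called 22 of the 55 (40%, against 30.1% of all tested genes), 9 higher (16.4%, against 14.3%) and 13 lower (23.6%, against 15.8%). The list was chosen with earlier results of these data known, so these shares do not test whether such genes change more often. Without si-SCR replicate 2, 5 were called higher and 11 lower, where 962 and 1218 of all 12356 genes tested were called higher and lower. Fewer were also called with either si-circVAMP3 library left out, and the same held over all genes. After GC correction 14 neighbouring genes were called higher, where 2527 of all 12387 genes tested were called higher. CYP27A1, ME1, ACSL5, ACSL6 and DGAT2 were not analysed here, and ABCG1 was under the filter at 0.0284 to 0.164 FPKM.

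Genes that process SREBP or control its release were among those called. MBTPS1 and MBTPS2, the proteases that cut SREBP in the Golgi, were both lower, with log2 fold changes of -0.38 (SE 0.05, adjusted p = 0.0038) and -0.38 (SE 0.07, adjusted p = 0.0087). Of the paired INSIG-binding proteins of the endoplasmic reticulum, ERLIN1 was higher by 0.27 and ERLIN2 lower, at -0.29.

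Sterol storage, export and sensing had 6 of 9 tested genes called (66.7%, against 30.1% of all tested genes), 4 higher (44.4%, against 14.3%) and 2 lower (22.2%, against 15.8%). It is 1 of several small role groups, in a list chosen with earlier results known, and the share of this group was not the highest. Citrate and NADPH supply had 3 of 4 called (75%), SREBP processing 5 of 8 (62.5%) and the isoprenoid branch 1 of 8 (12.5%). LIPA, the lysosomal lipase that frees cholesterol from its esters, was at 4.12, 3.73 and 3.66 FPKM in the controls and at 2.13 and 1.75 FPKM after si-circVAMP3. It was lower in both treated libraries (log2 fold change -0.95, SE 0.11, adjusted p = 0.0018). NCEH1, a cholesteryl ester hydrolase outside lysosomes, went the other way, at 0.912, 0.857 and 0.992 FPKM in the controls and at 1.75 and 1.78 FPKM after si-circVAMP3. Its log2 fold change was 0.87 (SE 0.11, adjusted p = 0.0024), so that the hydrolases LIPA and NCEH1 moved in opposite directions and NPC2, which also acts in lysosomes, rose while LIPA fell.

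NR1H2, the gene of the sterol receptor LXR-beta, was at 3.32, 3.27 and 2.03 FPKM in the si-SCR libraries and at 4.78 and 4.79 FPKM in the si-circVAMP3 libraries. All treated values were above all controls, of which si-SCR replicate 3 was the lowest (log2 fold change 0.75, SE 0.20, adjusted p = 0.035). Without that library the log2 fold change was 0.52 (adjusted p = 0.0030), and over the alternatives the adjusted p ran from 0.0030 to 0.15, with the call lost under a constant prior variance and without si-SCR replicate 2 or either si-circVAMP3 library.

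COQ2, which prenylates the head group of coenzyme Q and so draws on the isoprenoid branch, had the largest change on this list. It was at 10.6, 10.7 and 11.6 FPKM in the controls and at 4.73 and 4.61 FPKM after si-circVAMP3. The treated libraries were far below the controls (log2 fold change -1.22, SE 0.06, adjusted p = 0.00016). None of the other 7 tested genes of that branch was called.

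Fatty acid genes outside the members gave ELOVL2, an elongase of polyunsaturated fatty acids, at 2.72, 2.84 and 3.26 FPKM in the controls and at 1.54 and 1.52 FPKM after si-circVAMP3. It was lower with a log2 fold change of -0.90 (SE 0.10, adjusted p = 0.0018). FADS1, which acts on the same family of fatty acids, was lower too. Other desaturases and elongases were not called, among them FADS2 (0.07), FADS3 (0.09), ELOVL4 (0.04) and ELOVL5 (-0.14). Of 12 tested genes in this group 3 were called (25%, against 30.1% of all tested genes), 1 higher and 2 lower, and SCD5, the second stearoyl-CoA desaturase, was lower as SCD was, at -0.24.

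LPIN1, a phosphatidate phosphatase of glycerolipid synthesis, was at 2.92, 2.75 and 2.67 FPKM in the si-SCR libraries and at 1.82 and 1.73 FPKM in the si-circVAMP3 libraries. It was lower in both (log2 fold change -0.62, SE 0.08, adjusted p = 0.0034), and with ACSL3 (-0.23) it made the 2 called genes among 8 in acyl-CoA activation and glycerolipid synthesis (25%, against 30.1% of all tested genes). Among genes of citrate and NADPH supply IDH1 was higher by 0.28 and PGD lower, at -0.16. Of 6 electron donors and other sterol enzymes 2 were called (33.3%, against 30.1% of all tested genes), ERG28 higher, by 0.23, and LBR lower, at -0.23.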

How the data were processed

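Poly-A+ RNA of 5 RH4 cultures was sequenced with a stranded kit. The authors deposited gene-level FPKM values made with edgeR from HTSeq counts on the reverse strand, after Trimmomatic and STAR 2.5.2b alignment to GRCh38 with Ensembl 99 genes. Of the rows, 13783 were matched to a gene symbol. Whole reads were worked back from the FPKM of every row (relative tolerance 1e-09).

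Genes with at least 0.5 FPKM in at least 2 of 5 libraries were fitted with limma 3.58.1 (R 4.3.3) on log2(FPKM + 0.1) with an intensity trend, and the added 0.1 understates fold changes of low genes. P-values were Benjamini-Hochberg adjusted over 12423 genes, and a call is an adjusted p under 0.05. The fit was tested on simulated data. Tables and figures used Python 3.11.15, pandas 2.3.3 and matplotlib 3.10.9. Gene positions come from GENCODE v44.

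Alternatives changed the pseudocount, filter, scaling, prior variance, replicate block, fold threshold and libraries. Values after voom and after GC correction were added after seeing the data. Members and lists were chosen with earlier results of these data known. Values by library are given for VAMP3, called members, the 5 most abundant members, SREBF1, SREBF2, INSIG1, INSIG2 and SCAP, and up to 8 called neighbouring genes with the largest change, of which some are not reported here. Other genes were named after their values were seen. Promoter windows were to be shown for up to 4 called members holding the sterol regulatory element, outside chromosome 8.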

Additional observations from a re-analysis of the deposited data

How the results depend on the processing

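All 8 called members kept their direction in every alternative fit in which they were tested. FADS1, NPC2 and DHCR7 stayed past the threshold in each, and MVK, at the edge of the threshold, was the most often lost. Without 1 of the 2 si-circVAMP3 libraries the lone library was assumed to vary like the controls. Calls over all genes then fell, and the cause was not tested. Leaving out si-SCR replicate 1, 2 or 3 gave 3064, 2180 and 4014 calls over all genes, against 3737 in the main fit.

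With the threshold of 0.58 added, members called higher and lower were 0 and 0, neighbouring genes 2 and 4, and all genes 203 and 514. A constant prior variance left 3 members called lower. GC correction gave 14 neighbouring genes called higher, against 9 in the main fit. Of all genes it gave 2527 called higher, against 1774 in the main fit. A mean of at least 5 FPKM left 1270 genes called lower, of fewer genes tested. For other moves the cause was not tested.

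Leaving out each library in turn, members called lower numbered 1 to 4, neighbouring genes called higher 3 to 10 and lower 6 to 14, all genes called higher 465 to 1986 and lower 805 to 2028. The median log2 fold change of the members ran from -0.077 to 0.015.

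Some members that were not called changed sign. PMVK was -0.039 after GC correction, -0.0053 with TPM scaling and -0.042 with the block. IDI1 was 0.027, STARD4 0.066 and ACACA 0.012 after GC correction, and STARD4 was 0.0018 with median-ratio scaling. With 1 library left out, the log2 fold changes ran from -0.059 to 0.11 for PMVK, -0.069 to 0.33 for MVD, -0.099 to 0.031 for IDI1, -0.0075 to 0.077 for ACAT2, -0.015 to 0.14 for INSIG2, -0.20 to 0.070 for SREBF1, -0.0996 to 0.096 for STARD4, -0.078 to 0.38 for FASN and -0.082 to 0.046 for ACACA.

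Replicate numbers 1 and 2 occur in both groups, but no label says that they pair the cultures. Deviations of same-numbered libraries from their group means correlated at -0.12 and -0.02 across 12423 genes. With the replicate block, 1463 genes were called higher and 1681 lower, and all 8 called members were called. Replicate 3 occurs only among the controls, so with the block that library does not enter the difference. Log2 fold changes with the block were therefore those found without si-SCR replicate 3, among them MVD at -0.069 and FASN at -0.078.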
